A study of Mus musculus with 20 samples.

Results

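The comparison described here asks which genes of the mouse corneal epithelium differed between 24 and 12 months of age. Its members were the 5 libraries labelled 24 to 25 months and the 5 labelled 12 to 13 months, of 20 libraries in all, and the 11288 of 24552 genes whose normalized count averaged 10 or more over the 20 libraries. The members were chosen by label and by overall abundance, without use of the difference between the ages. Every library came from both corneas of 1 naïve, wild-type female C57BL/6J mouse, whose epithelium was scraped from the eye, and no mouse carried a transgene or received a treatment. The other libraries, 5 at 2 to 3 months (called young) and 5 at 18 to 19 months, lent their spread to the fit and give the levels on either side. Mice were bought and aged in house or came from a colony of aged mice. The source of each mouse is not given in the sources used here, so age and source cannot be told apart, and only females were sequenced.

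The corneal epithelium is the stratified sheet that covers the front of the eye. Its basal cells divide, move up through the wing cell layers and are shed from the surface into the tear film, and stem cells at the limbus replace them. It takes its glucose and oxygen mainly from the tear film, aqueous humour and limbal vessels, has a dense supply of sensory nerves, and answers injury and dryness with interleukin 1 family cytokines and transcription factors of the NF-κB and interferon regulatory factor families. A library of bulk RNA gives the mean over all cells that were scraped off, so fewer cells of a type and less RNA per cell cannot be told apart.

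Reads on genes ran from 6699383 to 8746903 at 12 months and from 8340088 to 9681497 at 24 months. The label of corneal epithelium was met by its markers: 15 of 16 listed markers were in the table and all 15 had reads at both ages, with a summed level of 447107 to 510108 normalized counts at 12 months and 475564 to 515048 at 24 months. The libraries of the 2 ages did not part cleanly over all genes. On the first principal component of the 10 libraries, which held 23.1% of the variance, 12-month replicates 5 and 2 lay at one end (scores of -60.7 and -42.1) and 24-month replicates 5 and 4 at the other (49.6 and 31.3). The 12-month replicates 1 (19.7) and 3 (-3.09) lay among the 24-month libraries, of which replicate 3 was lowest (-5.44). The second component, with 17.1% of the variance, set 12-month replicate 4 (-78.8) apart from the 9 others (-1.95 to 16.2). The 12-month replicates 2 and 5 were also the libraries with the fewest reads of the 10, at 6699383 and 6835160.

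Between 12 and 24 months, 22 of the 11288 genes tested (0.195%) changed at an adjusted p of at most 0.05 with at least a 1.2-fold difference (limma with Benjamini-Hochberg adjustment), 12 higher (0.106%) and 10 lower (0.0886%) at 24 months. The genes that rose, by 0.51 to 1.82 on the log2 scale, included Slco4a1, Cenpa, Snhg1, Paxip1, Ide, Mbd6, Nfkbiz, Tnk2, Kifc3 and Irf1. Those that fell were Cadm2, Ccdc82, Hook1, Zbtb38, Erich5, Hsd17b10, Hmgn5, 2410015M20Rik, Arid5b and Trip11, with log2 changes between -1.38 and -0.56. The adjusted p of all 22 lay between 0.0315 and 0.0419, close to the threshold, and 12 further genes had an adjusted p above 0.05 and under 0.051. At an unadjusted p under 0.05, 1661 genes (14.7%) differed, 852 higher (7.55%) and 809 lower (7.17%). In 366 genes (3.24%) the libraries of the 2 ages did not overlap, 169 higher (1.5%) and 197 lower (1.75%) at 24 months. Of the 22 called genes 20 were of this kind, and Hook1 was one of the exceptions. The median absolute log2 change was 0.80 in the called genes and 0.24 in all genes tested.

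**Figure D1:**
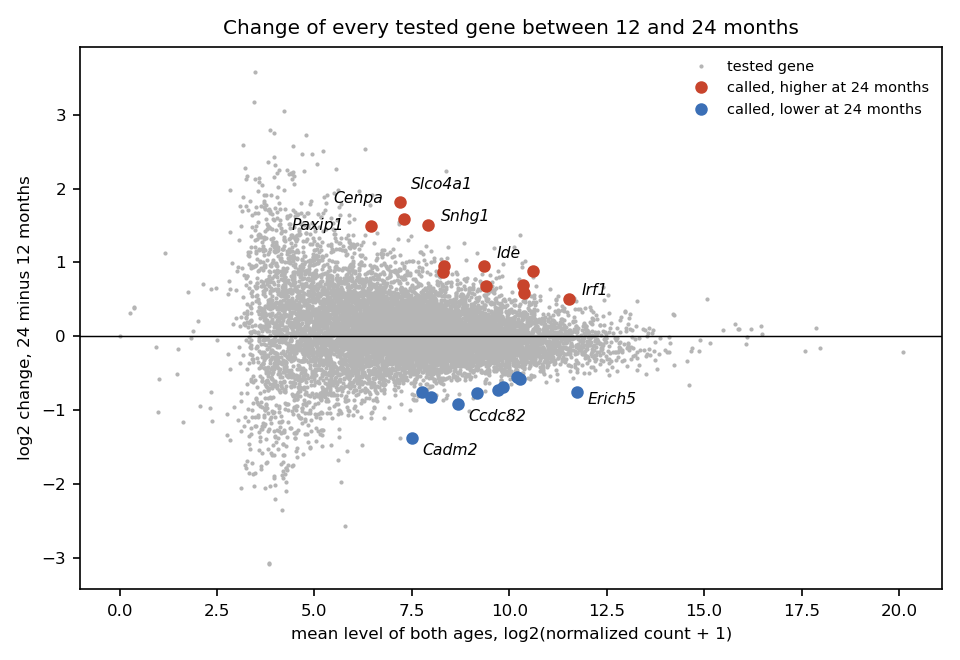
Each point is 1 of the 11288 genes tested, with its mean level at both ages, log2(normalized count + 1), on the horizontal axis and its log2 change from 12 to 24 months on the vertical axis. The 12 genes called higher are red and the 10 called lower are blue, and they lie at the edge of the cloud over a wide range of levels, from Paxip1 at the low end to Irf1 and Erich5 at the high end.

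The number of called genes rested on single libraries. Without 24-month replicate 1, 2, 3 or 5, 0 genes were called by limma (1560, 1464, 1681 and 1341 at an unadjusted p under 0.05), and without 24-month replicate 4 the single call was Krt14. Without 12-month replicate 5 there were 0 calls (1206 at an unadjusted p under 0.05), without replicate 2 only Tnk2, without replicate 4 the 3 genes Hook1, Nfkbiz and Slco4a1, and without replicate 1 there were 68. Without 12-month replicate 3 there were 23, of which 15 were among the 22. The libraries of the other ages, which enter these fits of the same 11288 genes only through the shared spread, moved the count as well, to 84 without young replicate 1, to 43 without 18-month replicate 2, to 11 and 12 without young replicates 4 and 5, and to 12, 11, 12 and 10 without 18-month replicates 1, 3, 4 and 5. All 22 genes kept their direction in each of the 32 alternative fits, but many of these fits could not have changed it. Leaving out a young or 18-month library does not alter the change, nor do a filter, a fold threshold or the use of only 10 libraries. In the 20 called genes whose libraries did not overlap, leaving out 1 library of either age cannot reverse it.

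**Figure D2:**
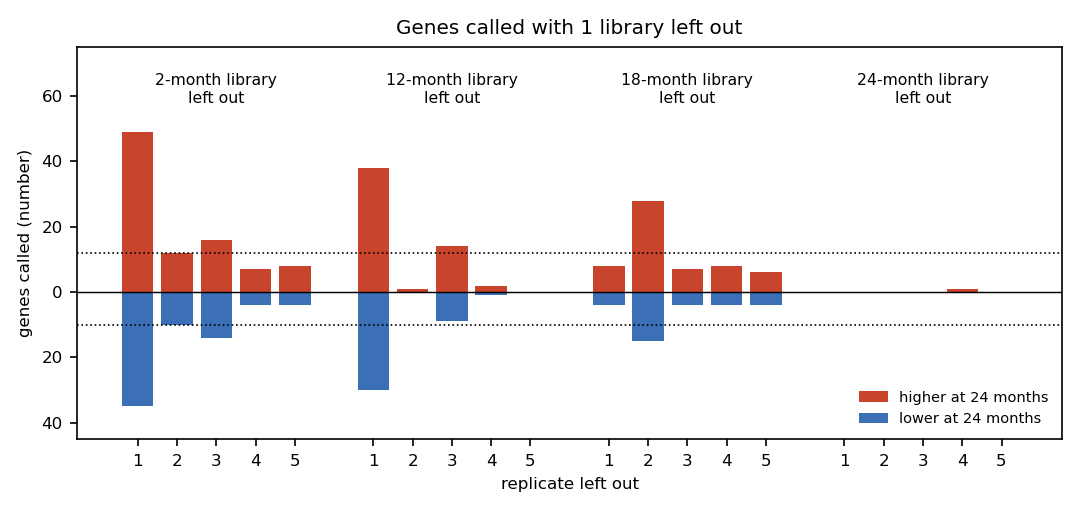
Bars give the number of genes called between 24 and 12 months when 1 of the 20 libraries was left out, with genes higher at 24 months above the line and genes lower at 24 months below it. The dotted lines mark the 12 higher and 10 lower genes of the fit with all libraries. Without any one of the 24-month libraries 0 or 1 gene was called.

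Base composition of the transcripts moved with the direction of change. The median GC content was 50.4% for all genes tested, 54.5% for the 12 called higher and 46.8% for the 10 called lower, and the median transcript length was 1392, 860 and 1732 bases. The slope of a library's log2 values on GC content, per 10 percentage points, was between 0.0327 and 0.154 in 24-month replicates 1 to 4 and -0.0626 in replicate 5, against -0.0941 to 0.0778 at 12 months. A trend on GC content and log2 length, each with its square, was then removed from each library, a step chosen after seeing the data. With it removed 14 genes were called, of which 12 were among the 22.

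**Figure D3:**
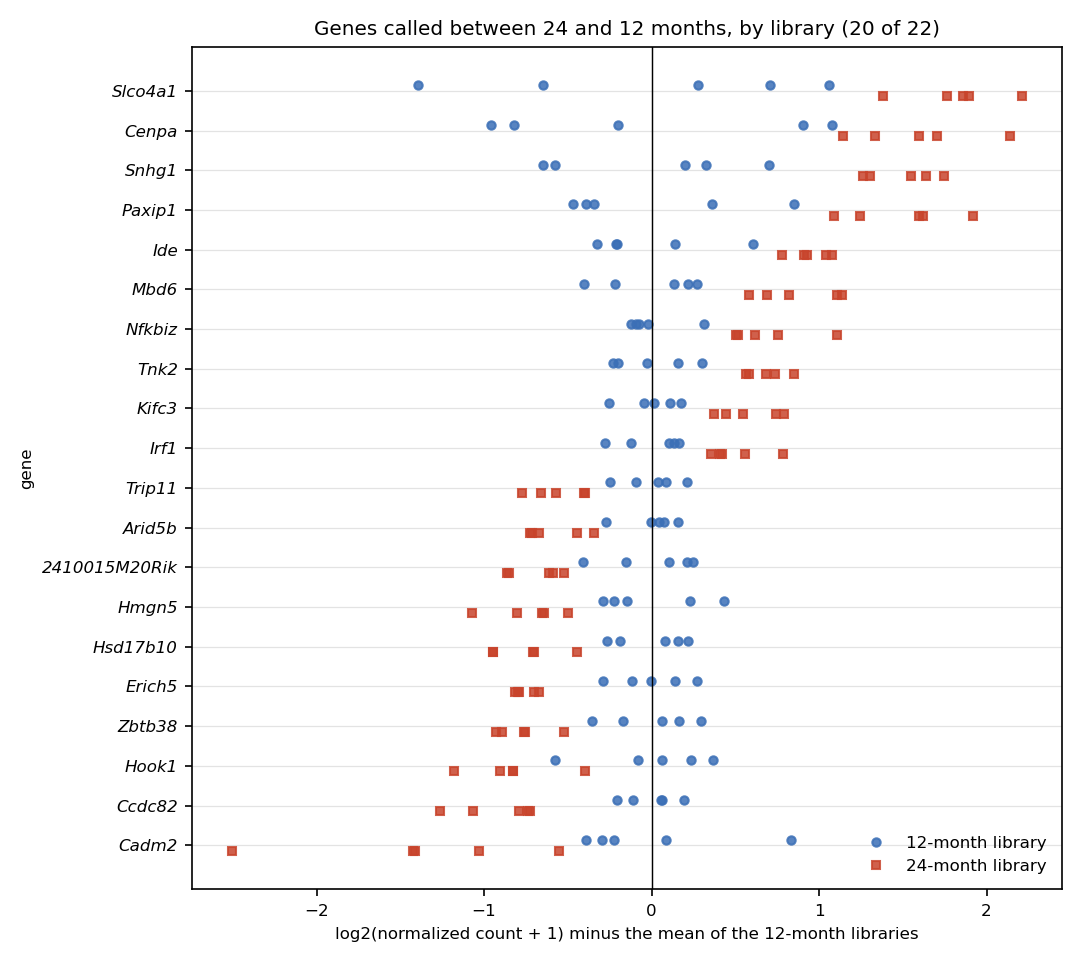
Each row is a called gene, 20 of the 22 being drawn, and each symbol is 1 library, 12-month libraries as blue circles and 24-month libraries as red squares, on a scale of log2(normalized count + 1) minus the mean of the 12-month libraries. In every row drawn except Hook1 the circles and squares do not overlap.

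Among the genes that rose were 2 regulators of inflammatory transcription. Nfkbiz (chr16:55811375-55838954, like all gene positions here from RefSeq on GRCm38.p6) encodes IκBζ, a nuclear protein that binds NF-κB and is needed for a secondary set of its target genes. Its normalized counts (reads divided by the size factor of the library) were 912, 944, 977, 1233 and 932 in 12-month replicates 1 to 5 and 1410.0, 1419.7, 1674, 1524 and 2139 in 24-month replicates 1 to 5. All 24-month libraries lay above all 12-month libraries, of which replicate 4 was the highest. The log2 change was 0.70 ± 0.14 (SE, limma adjusted p = 0.0315). Irf1 (chr11:53770014-53778374) encodes interferon regulatory factor 1, a transcription factor that interferons and inflammatory cytokines induce. It was at 2236, 2678, 2725, 2614 and 2009.6 at 12 months and at 3237, 3580.2, 4203, 3259.8 and 3112 at 24 months. It had the smallest change of the called genes that rose, 0.51 ± 0.11 (limma adjusted p = 0.0419), and the ages did not overlap.

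The promoter of Irf1 is shown because it holds letters that match sites of the NF-κB and STAT families, the factors through which inflammatory cytokines and interferons are known to act on this gene. The 250 bases before its start in RefSeq, chr11:53769764-53770013 on the plus strand of GRCm38.p6, read as follows, with an interferon-gamma-activated-type palindrome (TTCNNNGAA) and an NF-κB consensus site in capitals.
Irf1: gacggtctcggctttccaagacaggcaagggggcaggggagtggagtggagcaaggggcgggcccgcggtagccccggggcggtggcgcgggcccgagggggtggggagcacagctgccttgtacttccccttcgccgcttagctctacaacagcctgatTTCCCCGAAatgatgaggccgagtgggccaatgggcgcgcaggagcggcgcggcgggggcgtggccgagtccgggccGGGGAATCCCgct
The NF-κB site ends 3 bases before the start, and the palindrome ends 81 bases before it. On either strand, the NF-κB consensus occurred in 3.90% and TTCNNNGAA in 7.02% of all 32851 promoter windows of this length. Of the called genes in the promoter table, the NF-κB consensus was found in 1 of 8 that rose and 0 of 8 that fell, and the palindrome in 2 of 8 and 1 of 8. A match of letters is a description of the window and not a measure of binding.

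The genes that interferons induce had, as a list, a median close to that of all genes. Of 30 listed genes 28 were tested and 1 was called (Irf1), and the median log2 change was -0.051 against 0.020 for all genes. At an unadjusted p under 0.05, 2 were higher (7.14%, against 7.55% of all genes) and 1 was lower (3.57%, against 7.17%). Dhx58, which encodes a cytoplasmic RNA sensor, was at 19.3, 0, 20.4, 32.1 and 65.0 at 12 months and at 54.6, 52.0, 92.7, 36.5 and 73.4 at 24 months (log2 change 1.94 ± 0.76, limma adjusted p = 0.239). Among 9 tested genes of MHC class I presentation the heavy chains H2-K1 (0.35 ± 0.17, limma adjusted p = 0.337) and H2-D1 (0.50 ± 0.19, adjusted p = 0.236) had unadjusted p under 0.05, and none was called. Near-identical copies of these heavy chains can share reads.

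Within the interleukin 1 family, 13 of 21 listed genes were tested and 0 were called by limma, with 3 higher (23.1%, against 7.55% of all genes) and 1 lower (7.69%, against 7.17%) at an unadjusted p under 0.05 and a median of -0.037. Il33, an alarmin that epithelial cells hold in the nucleus and release on damage, stood at 181, 88.1, 111, 197 and 103 at 12 months and 282, 256, 342, 191 and 254 at 24 months. The 24-month replicate 4 lay within the 12-month range, the others above it, and the log2 change was 1.00 ± 0.28 (limma adjusted p = 0.122). Il1a, the interleukin 1 that dying epithelial cells release, had 35.9, 38.1, 48.2, 18.0 and 8.92 at 12 months and 70.2, 54.5, 74.7, 99.2 and 129.9 at 24 months. Its libraries did not overlap, with a log2 change of 1.64 ± 0.46 and an adjusted p of 0.122 by limma. The member on the lower side was Il1rl2, the receptor of interleukin 36, whose libraries also did not overlap (-1.48 ± 0.47, limma adjusted p = 0.146). Of genes typical of immune cells 13 of 27 were tested and 0 were called (2 higher, 0 lower at an unadjusted p under 0.05), and their summed level overlapped between the ages, at 1268 to 2091 at 12 months and 1268 to 1912 at 24 months. The complement subunit C1qc (1.67 ± 0.53) and the calprotectin subunit S100a9 (1.81 ± 0.73) were the members with the smallest p (limma adjusted p = 0.147 and 0.255), while Cd3e, Cd79a and Nkg7 were at 0 in every library of both ages.

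A transporter of small molecules was also among the calls. Slco4a1 (chr2:180456226-180474853), an organic anion transporter that carries thyroid hormones and prostaglandins, had the largest rise. Its normalized counts were 73.5, 22.4, 99.6, 127 and 38.2 at 12 months and 222, 228, 208, 285 and 159 at 24 months. The 12-month libraries were spread over a wide range, replicate 2 being lowest and replicate 4 highest, and all lay below the 24-month libraries. The log2 change was 1.82 ± 0.37, or 3.54-fold (limma adjusted p = 0.0329).

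Retinoic acid, made from vitamin A, is known to control how surface epithelia differentiate. Of 20 listed genes of retinoid handling and response 14 were tested, with a median log2 change of 0.16. The retinoic acid receptor Rarg had a change of -0.22 ± 0.13 (limma adjusted p = 0.434). Aldh1a1, a retinaldehyde dehydrogenase abundant in cornea, was at 1817 ± 384 at 12 months and 1919 ± 271 at 24 months (SD, n = 5), with a change of 0.093 ± 0.15.

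The called genes that fell included 2 proteins of the mitochondrion. Hsd17b10 (chrX:152001896-152004442), a dehydrogenase of isoleucine breakdown that is also a subunit of mitochondrial RNase P, was at 312, 224, 236, 299.6 and 284 at 12 months and 197, 139, 139, 164 and 165 at 24 months. The 24-month replicate 1 came closest to the 12-month libraries without reaching them, and the log2 change was -0.75 ± 0.16 (limma adjusted p = 0.0419). The gene 2410015M20Rik (chr17:56607452-56609771) encodes a small subunit of the complex that shapes the cristae of the inner mitochondrial membrane. It stood at 998, 1196, 835, 1284 and 1319 at 12 months and at 615, 609, 773, 738 and 727 at 24 months, a log2 change of -0.69 ± 0.14 (limma adjusted p = 0.0315). Its 12-month replicate 3 was the lowest of its age and still above every 24-month library.

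Of 81 listed nuclear genes of the respiratory chain 74 were tested and 0 were called by limma, with a median log2 change of -0.065. At an unadjusted p under 0.05, 1 was higher (1.35%, against 7.55% of all genes) and 7 were lower (9.46%, against 7.17%, a similar share). Sdhb, the iron-sulfur subunit of complex II (-0.38 ± 0.12, limma adjusted p = 0.146), and Cox7a2l, an assembly factor of supercomplexes (-0.47 ± 0.16, adjusted p = 0.175), had the smallest p. Genes of glycolysis and of the response to low oxygen mostly had positive changes. Of 30 listed 24 were tested, 23 had a positive change and 8 were higher at an unadjusted p under 0.05 (33.3%, against 7.55% of all genes), 0 were lower at that level and 0 were called, and the median was 0.24. Slc2a1, the glucose transporter GLUT1, was at 167, 88.1, 111, 128 and 99.4 at 12 months and 219, 224, 149.5, 211 and 203 at 24 months. Only 24-month replicate 3 lay within the 12-month range (log2 change 0.78 ± 0.22, limma adjusted p = 0.12). P4ha1, a collagen prolyl hydroxylase subunit induced by low oxygen, was at 64.1 to 111 and 126 to 175, which did not overlap (0.93 ± 0.30, limma adjusted p = 0.148), and Ldha, lactate dehydrogenase A, at 687 to 1271 and 987 to 1511, which did (0.48 ± 0.16, adjusted p = 0.175). With 1 library of either age left out, the median of the list ran from 0.21 without 24-month replicate 3 to 0.28 without 24-month replicate 2.

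Proteins of chromatin were called in both directions. Cenpa (chr5:30666877-30674837) encodes the histone H3 variant that marks centromeres and is made ahead of cell division. It was at 154, 40.8, 137, 63.1 and 37.0 at 12 months and 185, 222, 162, 239 and 324 at 24 months. The 12-month libraries fell into a low set (replicates 2, 4 and 5) and a higher pair (replicates 1 and 3), and the higher pair came close to 24-month replicate 3 without reaching it. The log2 change was 1.58 ± 0.34 (limma adjusted p = 0.0419). Paxip1 (chr5:27740080-27791672), a BRCT-domain protein of the DNA damage response and of a histone H3 methyltransferase complex, was at 79.0, 32.9, 31.1, 34.1 and 56.1 at 12 months and 104, 136, 93.7, 167 and 134 at 24 months, a change of 1.49 ± 0.32 (limma adjusted p = 0.0419). Over both ages together it was the least abundant of the called genes. Mbd6 (chr10:127281956-127290869), a member of the methyl-CpG-binding domain family, was at 254, 239, 188, 264 and 164 and 353, 327, 481, 472 and 387, with no overlap and a log2 change of 0.87 ± 0.18 (limma adjusted p = 0.0419).

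On the falling side, Hmgn5 (chrX:109004537-109013380), a nucleosome-binding protein that loosens chromatin, was at 926, 877, 838, 1383 and 1200.4 at 12 months and 651, 656, 487, 586 and 724 at 24 months (log2 change -0.73 ± 0.16, limma adjusted p = 0.0419). The 12-month replicates 4 and 5 were well above the other 3. Zbtb38 (chr9:96682767-96731675), a zinc finger protein that binds methylated DNA, was at 644, 758, 566, 812 and 888 and 503, 427, 389, 428 and 380.2, a change of -0.77 ± 0.15 (limma adjusted p = 0.0315). Arid5b (chr10:68092523-68279355), a DNA-binding partner of a histone demethylase, was at 1222, 1469, 1522, 1550.3 and 1643 at 12 months and 1160.4, 892, 1083, 927 and 897 at 24 months. The 12-month replicate 1 and 24-month replicate 1 were nearest each other and did not cross (-0.58 ± 0.12, limma adjusted p = 0.0419).

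Genes of cell division other than Cenpa, which was not on the list, tended to the same side and were not called. All 25 listed proliferation genes were tested, 20 had a positive change, 5 were higher and 0 lower at an unadjusted p under 0.05 (20% higher, against 7.55% of all genes), and the median was 0.24. It ran from 0.10 without 24-month replicate 5 to 0.31 without 24-month replicate 1. The mitotic kinases Aurka, at 61.6, 93.4, 25.7, 41.1 and 14.02 and 63.4, 91.1, 98.4, 83.5 and 147, and Bub1, at 21.1, 40.8, 65.4, 54.1 and 22.9 and 73.1, 57.7, 82.3, 75.7 and 145, had log2 changes of 1.24 ± 0.39 and 1.13 ± 0.34 (limma adjusted p = 0.146 and 0.136). In both the 24-month replicate 5 was the highest library. Cdk1, the kinase that drives entry into mitosis, was at 184 to 414 and 409.5 to 709.6 (0.76 ± 0.25, limma adjusted p = 0.164), and its partner cyclin Ccnb1 at 159.9 to 230.4 and 267 to 445 (0.65 ± 0.22, adjusted p = 0.175). The 5 members with a negative change were Mcm7 (-0.4339), Mcm3 (-0.2364), Tyms (-0.1875), Mki67 (-0.1171) and Top2a (-0.039). Their limma adjusted p ran from 0.4255 to 0.955.

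Of 18 genes of senescence and cell cycle arrest 16 were tested and 0 were called by limma (median 0.12). At an unadjusted p under 0.05, 0 were lower and 1 was higher (6.25%, against 7.55% of all genes). That gene was Cdkn2d, an inhibitor of CDK4 and CDK6, at 59.1 to 126 and 143 to 184 with no overlap (0.88 ± 0.30, limma adjusted p = 0.175). Cdkn2a, which encodes p16 and ARF, was at 15.6, 14.5, 9.64, 6.01 and 20.4 at 12 months and 19.5, 35.8, 23.6, 20.01 and 31.1 at 24 months, which are low levels. Its log2 change between these ages was 0.99 ± 0.57 (limma adjusted p = 0.417), while the young mean was 1.85 ± 1.75 (SD, n = 5). Cdkn1a, which encodes p21, was at 2589 to 3871 and 2838 to 4422 (0.11 ± 0.15, adjusted p = 0.763), and Mdm2, the ubiquitin ligase of p53, had a change of 0.29 ± 0.15 (adjusted p = 0.388).

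The one called noncoding gene was Snhg1 (chr19:8723487-8726326), whose introns carry small nucleolar RNAs that guide the modification of ribosomal RNA and whose spliced transcript is itself not translated. It was at 199.5, 81.5, 153, 140.3 and 77.7 at 12 months and 359.8, 412, 295, 303 and 383 at 24 months. The highest 12-month library, replicate 1, was well below the lowest 24-month library, replicate 3. The log2 change was 1.501 ± 0.32 (limma adjusted p = 0.0419). The annotation places 8 small nucleolar RNA genes on the same strand within the span of Snhg1. Whether any of their reads were counted to the host was not tested.

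Other host genes of small nucleolar RNAs, looked at after this value was seen, lay on the same side. Of the 17 others in the table (the rest of the Snhg series, Gas5 and Zfas1) 13 were tested and 12 had a positive change. At an unadjusted p under 0.05, 7 were higher (53.8%, against 7.55% of all genes) and 0 lower, and the median of 0.84 ran from 0.54 to 0.98 with 1 library of either age left out. Zfas1, one of the genes next to the threshold, was at 155, 112, 110.4, 82.2 and 86.7 and 233, 224, 186, 194 and 182 (0.92 ± 0.21, limma adjusted p = 0.0501). Snhg12 was at 30.3, 39.5, 68.6, 0 and 38.2 and 124, 146, 140.0, 123 and 69.7, with no read in 12-month replicate 4 (2.53 ± 0.68, adjusted p = 0.101), and Snhg5 at 29.3 to 101 and 56.8 to 148 (0.78 ± 0.33, adjusted p = 0.271). Gas5, the most abundant of those named here, was at 1184 to 1485 and 1441 to 1606, with a smaller change of 0.22 ± 0.10 (adjusted p = 0.319).

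Messages of the cytosolic ribosomal proteins lay on the other side. Of 86 listed 79 were tested and 0 were called by limma, 1 was higher and 16 were lower at an unadjusted p under 0.05 (20.3% lower, against 7.17% of all genes), and 10 were lower without overlap (12.7%, against 1.75%). The median was -0.12 and ran from -0.18 without 24-month replicate 5 to -0.099 without 12-month replicate 1. Rpl14, a protein of the large subunit, was at 2781, 2440.0, 2716, 3185 and 3178 at 12 months and 2033, 1933, 1791, 1819 and 1880.5 at 24 months (-0.59 ± 0.13, limma adjusted p = 0.0501). Rps20, of the small subunit, was at 9930.0 to 13368 and 7803 to 8995 (-0.46 ± 0.12, adjusted p = 0.0936). Ribosomal protein genes have many processed copies that can share reads. Proteasome subunits gave 2 higher (5.41%, against 7.55% of all genes) and 4 lower (10.8%, against 7.17%) of 37 tested at an unadjusted p under 0.05. They had 0 calls by limma and a median of -0.11. The lid subunit Psmd6 had a change of -0.41 ± 0.12 (limma adjusted p = 0.124) and Psmd8, another, of 0.41 ± 0.13 (adjusted p = 0.147).

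A further set of called genes act in signalling, at the cytoskeleton and in membrane traffic. Tnk2 (chr16:32644099-32683493), a non-receptor tyrosine kinase that binds active Cdc42, was at 442, 639, 452, 510.1 and 578 at 12 months and 866, 938, 835, 779 and 768 at 24 months (log2 change 0.68 ± 0.13, limma adjusted p = 0.0315). No library of one age reached the other. Kifc3 (chr8:95099828-95202826), a kinesin that walks to microtubule minus ends and acts at epithelial adherens junctions, was at 889.8, 1197, 1029.6, 1071 and 1147 and 1552, 1778, 1838, 1446 and 1373 (0.58 ± 0.12, limma adjusted p = 0.0315). The ages did not overlap. Kifc3 overlaps genes on the opposite strand, and Tnk2 overlaps the antisense RNA Tnk2os. The called genes Irf1, Mbd6, Zbtb38, Cadm2, Hook1 and Trip11 also overlap genes on the opposite strand. Whether counting used strand is not given in the sources used here.

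Cadm2 (chr16:66655416-67620917), an immunoglobulin-type cell adhesion molecule best known from neurons, had the largest fall. Its values were 187, 437, 199, 209 and 260.0 at 12 months and 91.7, 119.5, 90.8, 167 and 42.4 at 24 months. The 12-month replicate 2 was the highest and 24-month replicate 5 the lowest, and 24-month replicate 4 came closest to the 12-month range, just below replicate 1. The log2 change was -1.38 ± 0.29 (limma adjusted p = 0.0419). Hook1 (chr4:95967181-96025412), which links endosomes to microtubules, was at 333, 376, 301, 213 and 412 and 179, 169.9, 242, 140.1 and 179.8. The 24-month replicate 3 lay above 12-month replicate 4, and the exact permutation p was 0.0159 (two-sided, n = 5 and 5), with a log2 change of -0.83 ± 0.18 (limma adjusted p = 0.0419). Trip11 (chr12:101834045-101913171), a Golgi tether that is also needed for cilia, was at 1164, 1467, 1293, 1594 and 1419.6 and 928, 808, 1044, 1049 and 873 (-0.56 ± 0.12, limma adjusted p = 0.0419), without overlap.

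The coiled-coil gene Ccdc82 (chr9:13246917-13292517) and the glutamate-rich gene Erich5 (chr15:34453312-34473892) also fell. Ccdc82 was at 458, 551, 549.6, 490.0 and 605 at 12 months and 304, 252.1, 319, 316 and 219 at 24 months, 2 ranges far apart (-0.92 ± 0.18, limma adjusted p = 0.0315). Erich5, the most abundant called gene over both ages together, was at 3498, 4709, 3935, 4269 and 5147 at 12 months and 2428, 2624, 2681, 2469 and 2459 at 24 months. Its 24-month libraries were the tightest of any called gene, and its log2 change was -0.76 ± 0.14 (limma adjusted p = 0.0315).

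Ide (chr19:37268743-37334544), the insulin-degrading enzyme, a zinc protease that also cleaves other small peptides, was at 673, 383, 486, 382 and 353 at 12 months and at 759.6, 832, 841, 935 and 910.1 at 24 months. Of the 12-month libraries, replicate 1 was closest to the 24-month range. The log2 change was 0.95 ± 0.18 (limma adjusted p = 0.0315). At 18 months it was already at 839, 664, 1007, 948 and 851, a mean of 862 ± 131 (SD, n = 5), against 855 ± 69.3 at 24 months. Of its neighbours on chromosome 19, Fgfbp3 (chr19:36917550-36919599), a fibroblast growth factor binding protein, was at 38.2 to 113 and 108 to 194 (0.80 ± 0.27, adjusted p = 0.178), and the others tested between them or next to them, Btaf1 (0.039), Cpeb3 (-0.091), March5 (0.056), Tnks2 (-0.084) and Kif11 (0.28), had log2 changes with adjusted p from 0.655 to 0.935.

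Levels at the other ages placed these genes in different patterns. In 18 of the 22 called genes the young mean lay between the 12-month and 24-month means, and in 11 the 24-month mean was nearer to the young mean than the 12-month mean was. The 18-month mean lay between the other 2 in 20 genes, and in 15 it had covered at least 50% of the way from the 12-month to the 24-month mean. These comparisons share the 12-month and 24-month libraries. The genes were also chosen for a large difference between these 2 ages, so means at other ages tend to fall between them. The same counts were not made over all genes tested, so they do not show a course particular to the called genes. No called gene passed the thresholds between 18 and 12 or between 24 and 18 months.

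One pattern was a 12-month level off the young level with a 24-month level near it. The cristae subunit 2410015M20Rik had means of 661 ± 93.3 (young), 1126 ± 205 (12 months), 821 ± 103 (18 months) and 692 ± 75.2 (24 months, SD, n = 5). Its log2 change was 0.76 from young to 12 months (limma adjusted p = 0.00419) and 0.070 from young to 24 months (adjusted p = 0.916). Cadm2 had means of 109.6 ± 22.3, 258 ± 104, 171 ± 52.4 and 102 ± 45.6 in the same order. Its change from young to 12 months was 1.18 (limma adjusted p = 0.0592).

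Another pattern was a 12-month mean close to the young mean and a 24-month mean away from both. The protease Ide had means of 442 ± 158, 455 ± 132, 862 ± 131 and 855 ± 69.3 in the same order (SD, n = 5), and its log2 change from young to 24 months was 1.01 (limma adjusted p = 0.0026). The change from young to 24 months was, for Kifc3, 0.66 (adjusted p = 0.00189) and for Hmgn5 -0.72 (adjusted p = 0.0193), which with Ide were 3 of the 4 called genes that also passed from young to 24 months. The timing differed among them: Kifc3 was at 1069 ± 144 at 18 months, its 12-month level, whereas Ide was at its 24-month level by then. Snhg1 was, like Kifc3, near its 12-month mean at 18 months, at 144 ± 52.8, but its young libraries were spread more widely, at 106, 125, 283, 112 and 311. The steps that would place a shift did not pass. The limma adjusted p was 0.0915 for Ide from 12 to 18 months, and from 18 to 24 months 0.312 for Kifc3 and 0.696 for Snhg1. The time of a shift therefore rests on means of 5 libraries at each age.

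**Figure D4:**
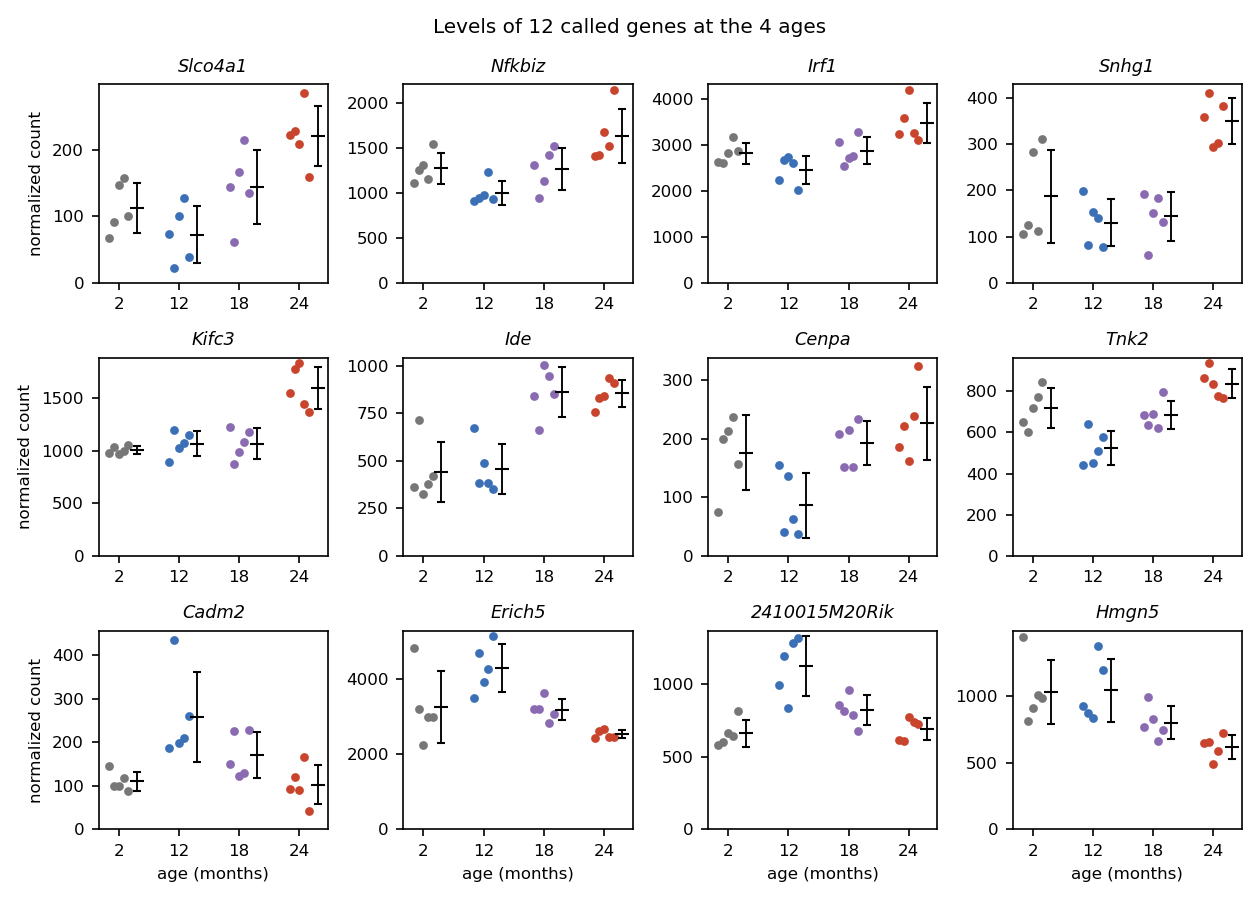
Each panel shows 1 gene, with normalized counts of the 5 libraries at 2, 12, 18 and 24 months as points and the mean ± SD as a black bar. Kifc3 stays level to 18 months and is higher at 24 months, Snhg1 is higher at 24 months than at 12 and 18 months with 2 young libraries (283 and 311) near its 24-month range, Ide is already higher at 18 months, and Cadm2 and 2410015M20Rik peak at 12 months.

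Just outside the threshold stood genes most of which, of those named here, had differences as large as those called. Tfrc, the transferrin receptor that takes up iron, was at 100.2, 112, 70.7, 91.2 and 93.0 at 12 months and 254, 200, 159, 194 and 497 at 24 months (1.36 ± 0.30, limma adjusted p = 0.0501). The highest library was 24-month replicate 5, and the ages did not overlap. Fabp5, the fatty acid binding protein of keratinocytes, was at 329, 249, 386, 213 and 372 and 605, 567.6, 869, 446 and 691 (1.04 ± 0.23, adjusted p = 0.0501). Mrpl53, a protein of the mitochondrial ribosome, was at 141 to 234 and 282 to 356 (0.84 ± 0.19, adjusted p = 0.0501). Wfdc18, a small secreted protein of the whey acidic protein family, was at 11.9, 32.9, 3.21, 24.1 and 33.1 and 82.9, 49.6, 71.0, 36.5 and 131 (1.98 ± 0.45, limma adjusted p = 0.0501). Both ages were far below its young mean of 403 ± 95.0 (SD, n = 5).

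On the lower side, Apela, a peptide ligand of the apelin receptor, was at 38.6, 19.7, 21.4, 9.02 and 30.6 at 12 months and 0, 4.88, 0.946, 5.22 and 0.941 at 24 months. Its 24-month libraries were at 0 to 6 reads, and its young mean was 83.8 ± 46.4 (SD, n = 5), so the level was lower at each later age. The log2 change from 12 to 24 months was -3.07 ± 0.70 (limma adjusted p = 0.0501). Pcm1, the scaffold of centriolar satellites, was at 3055 to 4087 and 2351 to 2831 (-0.47 ± 0.11, adjusted p = 0.0501), and Lrrc58 at 879.6 to 1289 and 636 to 802 (-0.63 ± 0.14, adjusted p = 0.0544). None of these 3 overlapped between the ages, and the change of Pcm1 was smaller than that of any called gene.

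Genes of surface stress and cornification were higher in some 24-month libraries. Of 24 listed 13 were tested and 0 were called by limma, 5 were higher (38.5%, against 7.55% of all genes) and 0 lower at an unadjusted p under 0.05, and the median was 0.38. That median rested on single libraries, at 0.063 without 24-month replicate 1 and 1.10 without 24-month replicate 5. Sprr1a, a cross-linked protein of the cornified envelope, was at 190.3, 388, 110.4, 246 and 149 at 12 months and 599, 508, 511, 326 and 389.6 at 24 months (1.21 ± 0.29, limma adjusted p = 0.0713). The 24-month replicate 4 lay within the 12-month range. Lce3a, a late envelope protein, was at 374, 743, 551, 859.8 and 633 and 776, 1043, 3567, 1257 and 2634 (1.37 ± 0.34, adjusted p = 0.0818), with 24-month replicates 3 and 5 far above the rest. Krt16, a keratin of wounded epithelium, was at 28.5, 32.9, 45.0, 62.1 and 19.1 and 2623, 246, 172, 26.1 and 43.3 (2.23 ± 0.78, adjusted p = 0.193), with 24-month replicate 1 far above the rest. Krt10, a keratin of the epidermis, had 1.39 ± 0.52 (limma adjusted p = 0.215). The calprotectin subunit S100a9, which is on this list as well as that of immune cells, had 1.81 ± 0.73 (limma adjusted p = 0.255). S100a7a, an antimicrobial protein of keratinocytes that was not on the list, had 1.75 ± 0.43 (limma adjusted p = 0.0825). The 5 members with the changes nearest to 0 or below it were the stress keratins Krt6a (0.10), Krt6b (0.026) and Krt17 (-0.16), the epidermal keratin Krt1 (-0.12) and the transglutaminase Tgm1 (-0.0024), with adjusted p from 0.755 to 0.998.

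Markers of the corneal epithelium itself had a median of 0.10 over 15 tested genes, with 0 calls by limma, 3 higher (20%) and 2 lower (13.3%) at an unadjusted p under 0.05. Krt14, the keratin of basal cells, was at 4123, 4026, 3657, 3707 and 4867 at 12 months and 9482, 6829, 7586, 3699 and 6209 at 24 months. The 24-month replicates 1, 2, 3 and 5 lay above all 12-month libraries and replicate 4 lay among the lowest of them (0.67 ± 0.17, limma adjusted p = 0.092). Without that replicate Krt14 was the single gene called. Tkt, the transketolase that is a corneal crystallin, was at 13828 to 20173 and 10927 to 12872, without overlap (-0.45 ± 0.13, adjusted p = 0.13). Of junction genes 27 were tested, 5 were higher (18.5%, against 7.55% of all genes) and 1 lower (3.7%, against 7.17%) at an unadjusted p under 0.05, and the median was 0.017, against 0.020 for all genes. Plakoglobin, Jup, had 0.56 ± 0.21 (adjusted p = 0.215) and the tight junction scaffold Tjp1 -0.42 ± 0.14 (adjusted p = 0.178). Of hemidesmosome and basement membrane genes 19 were tested, 1 was higher (5.26%) and 2 were lower (10.5%, against 7.17% of all genes) at that level. The hemidesmosome linker Dst was at -0.34 ± 0.12 (limma adjusted p = 0.209) and the laminin chain Lama5 at 0.64 ± 0.26 (adjusted p = 0.26).

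Matrix genes of the stroma under the epithelium lay on the lower side at 24 months, and none was called. Of 20 keratocyte markers 19 were tested, 0 were higher and 6 lower at an unadjusted p under 0.05 (31.6%, against 7.17% of all genes), 15 of 19 had a negative change, and the median was -0.75. It ran from -0.97 without 24-month replicate 5 to -0.54 without 24-month replicate 4. Their summed level was 1386 to 2331 normalized counts at 12 months and 971 to 1840 at 24 months. Of the collagen family 19 of 44 were tested, with 0 higher and 4 lower (21.1%) at that level, 3 positive and 16 negative changes and a median of -0.63. It was -0.33 without 12-month replicate 1 and -0.73 without 12-month replicate 3. Many stromal collagens are on both lists, among them Col1a1, Col1a2 and Col6a3, which were lower at that level, so the lists do not count separately. The collagen family also holds members of the hemidesmosome and basement membrane list, such as Col17a1, Col7a1 and Col4a1. Dcn, the proteoglycan decorin, was at 905, 489, 398, 341 and 525 at 12 months and 225, 155, 284, 199 and 571 at 24 months (-0.96 ± 0.29, limma adjusted p = 0.137). Col1a1 was at 126, 125, 97.5, 106 and 127 and 44.9, 55.3, 51.1, 52.2 and 162 (-0.84 ± 0.30, adjusted p = 0.202). In both genes 24-month replicate 5 was the highest of its age, and in Col1a1 it was the highest of all 10.

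Col1a2, the other chain of collagen I, was at 139 to 423 and 83.8 to 221 (-0.79 ± 0.31, limma adjusted p = 0.248), and Col6a3 at 3.82 to 21.04 and 0 to 5.85 (-2.05 ± 0.63, adjusted p = 0.137). The defining keratocyte proteoglycan Lum was at 13.2 to 46.0 and 3.78 to 67.8 (-0.58 ± 0.55, adjusted p = 0.657), again with 24-month replicate 5 highest. Sparc (-0.35 ± 0.21, adjusted p = 0.423) and Serpinf1 (-1.34 ± 0.85, adjusted p = 0.466), both secreted by stromal cells, had larger p. The 4 keratocyte markers with a positive change were Kera, the proteoglycan keratocan (0.75 ± 1.06), Col6a2 (0.11), Fbln1 (0.034) and Aldh1a7 (0.033), with adjusted p from 0.781 to 0.978. How many stromal cells were scraped with the epithelium was not measured.

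**Figure D5:**
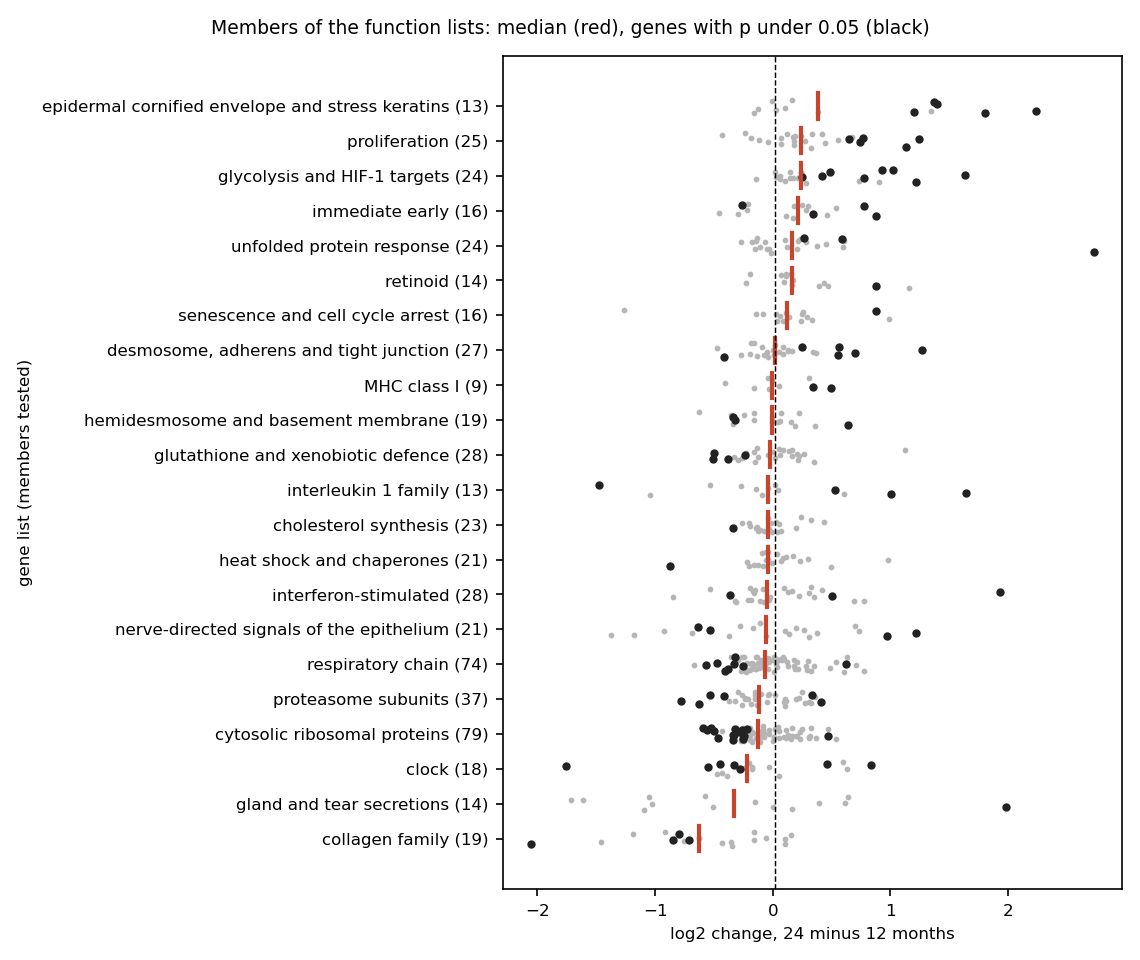
Each row is a list of genes by function with the number of members tested, each dot is 1 member at its log2 change from 12 to 24 months, black where the unadjusted p was under 0.05, and the red bar is the median of the list. The dashed line marks the median of all 11288 genes tested, 0.020. Medians ran from -0.63 for the collagen family to 0.38 for cornified envelope and stress keratins.

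The clock genes gave 2 higher (11.1%, against 7.55% of all genes) and 5 lower (27.8%, against 7.17%) of 18 tested at an unadjusted p under 0.05, with 0 calls by limma and a median of -0.22. The nuclear receptor Rora, at 2366, 2502, 2379.7, 2744 and 2834 and 1984, 1986, 2043, 2305 and 1888 (-0.33 ± 0.10, limma adjusted p = 0.136), and the clock output factor Hlf, at 7282, 8205, 7208, 8493 and 7556 and 5402, 6975, 6325, 6697 and 6532 (-0.28 ± 0.089, adjusted p = 0.148), did not overlap between the ages. On the higher side were Arntl, which encodes the core activator BMAL1 (0.84 ± 0.30, limma adjusted p = 0.201), and the repressor Bhlhe40 (0.46 ± 0.21, adjusted p = 0.311). The hour at which corneas were taken is not given in the sources used here. Of 28 genes of glutathione and xenobiotic defence 0 were higher and 4 lower (14.3%, against 7.17%) at an unadjusted p under 0.05, with 14 changes on either side of 0 and a median of -0.019. Nfe2l2, which encodes the master regulator NRF2, was at 1658, 2091, 1738, 1727 and 1978 and 1531, 1483, 1446, 1326 and 1276, without overlap (-0.38 ± 0.11, limma adjusted p = 0.136), and Gclm, a subunit of the enzyme that limits glutathione synthesis, at 254 to 461 and 188 to 263 (-0.51 ± 0.18, adjusted p = 0.198).

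Of 24 tested genes of the unfolded protein response 3 were higher (12.5%, against 7.55% of all genes) and 0 lower at an unadjusted p under 0.05 (median 0.16). Asns, asparagine synthetase, was at 13.8, 2.63, 1.07, 29.1 and 1.27 at 12 months and 72.2, 52.0, 33.1, 15.7 and 43.3 at 24 months (2.73 ± 0.77, limma adjusted p = 0.123), with 12-month replicate 4 within the 24-month range, and the disulfide isomerase Pdia6 had 0.27 ± 0.12 (adjusted p = 0.293). Immediate early genes had 3 higher (18.75%) and 1 lower (6.25%, against 7.17% of all genes) of 16 (median 0.21). The phosphatase Dusp1 was at 0.87 ± 0.36 (limma adjusted p = 0.264) and the AP-1 subunit Junb at 0.35 ± 0.15 (adjusted p = 0.277). Heat shock genes had 0 higher and 1 lower (4.76%) of 21 (median -0.042, Hspb8 -0.87 ± 0.33 and Hspa1b 0.50 ± 0.26), and cholesterol synthesis 0 higher and 1 lower (4.35%) of 23 (median -0.038, Stard4 -0.34 ± 0.12), with no member called.

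Signals from the epithelium to nerves had 2 higher (9.52%, against 7.55% of all genes) and 2 lower (9.52%, against 7.17%) of 21 tested at an unadjusted p under 0.05. Their median was -0.054. Edn1, endothelin 1, was at 432, 667, 556, 593 and 605 and 327, 379.7, 482, 460.3 and 327 (-0.53 ± 0.14, limma adjusted p = 0.101). Sema4a, a semaphorin, was at 982, 438, 815, 718 and 289 and 1259, 1238, 856, 1340.1 and 1191 (0.97 ± 0.32, adjusted p = 0.173), with 12-month replicates 2 and 5 far below the others. Pdyn, the precursor of dynorphin peptides, was at 513, 399.9, 429.6, 256 and 307 at 12 months and 511, 547, 342, 405 and 259 at 24 months, and its difference between these ages was small beside their spread (0.11 ± 0.26, adjusted p = 0.882). Ulk1, the kinase that starts autophagy, was at 396, 355, 472, 508 and 311 and 558, 772, 868, 626 and 524, which did not overlap (0.71 ± 0.20, limma adjusted p = 0.124). Other genes of interest in corneal ageing had wide overlap, namely Igf1r (0.076 ± 0.12), Igfbp2 (-0.62 ± 0.35) and the hyaluronan receptor Cd44 (0.37 ± 0.25), with adjusted p of 0.8, 0.416 and 0.486.

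Markers of other cell types were mostly too low to test. Of melanocyte markers 4 of 9 were tested and 2 were lower at an unadjusted p under 0.05. Kit, a receptor tyrosine kinase that is not particular to melanocytes, was at 901, 1240.4, 1054, 1439 and 1574 and 615, 723, 894, 994 and 899 (-0.58 ± 0.15, limma adjusted p = 0.0943), and Dct, an enzyme of pigment synthesis, was at 56.1, 61.8, 904, 77.2 and 109.6 and 32.2, 69.1, 40.7, 72.2 and 32.9, so that 12-month replicate 3 alone stood far above the rest (-1.37 ± 0.51, adjusted p = 0.221). Of conjunctival and limbal markers 10 of 14 were tested, 2 higher and 1 lower at that level, with Krt4 at -0.46 ± 0.17 (adjusted p = 0.208) and Agr2, a protein of secretory cells, at 1.81 ± 0.74 (adjusted p = 0.264). The goblet cell markers Muc5ac and Spdef were at 0 in every 12-month library, and Tff3 in every library of both ages.

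Of gland and tear secretions 14 of 28 were tested, with Wfdc18 alone at an unadjusted p under 0.05 and a median of -0.33, which ran from -0.62 without 24-month replicate 5 to -0.035 without 12-month replicate 3. Lactoferrin, Ltf, had 0.61 ± 0.36 (limma adjusted p = 0.427), and of the acinar cell markers Scgb2b2 (-1.71 ± 1.02, adjusted p = 0.437) and Obp1a (-1.61 ± 1.02, adjusted p = 0.469) were highest at 24 months in replicate 5. Of nerve and Schwann cell markers 4 of 18 could be tested (Ngfr -0.31 ± 0.15, Pmp22 0.47 ± 0.26), of vessel markers 3 of 19 (Acta2 0.83 ± 0.57, Kdr 0.56 ± 1.00) and of endothelial markers 4 of 9 (Alcam 0.15 ± 0.091), with 0 at an unadjusted p under 0.05 in these 3 lists. The single testable skeletal muscle marker was Tnni2 (0.74 ± 0.29, limma adjusted p = 0.243), and the summed level of that list was 69.6 to 153 at 12 months and 130 to 259 at 24 months, ranges that overlap. The part of these cell types in the called genes was not tested.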

How the data were processed

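RNA from scraped corneal epithelium was primed with oligo-dT, so reads lie near the 3′ end of transcripts, and sequenced as single reads. The authors' methods name cutadapt for trimming, STAR for alignment to GRCm38, HTSeq for counts per gene and the relative log expression of DESeq2 for normalization. Tool versions are not given in the sources used here. In the deposited table the authors give log2(normalized count + 1) for each of 20 libraries, and all values (100%) times a size factor were whole reads to within 0.01. The deposited tables also hold the authors' own fold changes and p-values, which were not used.

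Log2 values of 20 libraries were fitted by age with limma 3.58.1 in R 4.3.3 with a variance trend, and 24 minus 12 months was tested with Benjamini-Hochberg adjustment over 11288 genes whose normalized count averaged 10 or more. Genes were called at an adjusted p of at most 0.05 and at least 1.2-fold, and errors of log2 changes are SEs. Fold changes are on the log2(value + 1) scale, which understates changes of low genes. Two-sided exact permutation tests used all 252 splits of 5 against 5 libraries, with a smallest p of 0.00794. P-values measure the spread between libraries of different mice, with animal, scrape and preparation not separated, and the chi-square per degree of freedom between libraries of one age was 11.1 to 38.9. Tables were handled with Python 3.11.15 and pandas 2.3.3, and the fit was tested on simulated data. Positions came from RefSeq GRCm38.p6 and GC content and length from GENCODE M21 transcripts (11169 of 11288 genes).

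Named genes were all called genes, the next by p up to 15 in each direction, the 2 members of each list with the smallest p, and genes the paper discusses. Fgfbp3, the other small nucleolar RNA hosts, Krt10, Krt16, S100a7a, Cdk1, Ccnb1, Ldha, Lum, Il1rl2, Arntl, Bhlhe40 and the members given as nearest to 0 or as positive in the stress keratin and keratocyte lists were picked with their values in view. The members given as negative in the proliferation list were picked in the same way. Some genes that this rule names are not reported here. The comparison and the gene lists were chosen with earlier results of these data known.

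The alternatives were quantile normalization, no filter, a minimum mean of 50, only 10 libraries, a block for the replicate number, fold thresholds of none and 1.5, pseudocounts of 0.1 and 10, voom, library weights, leaving out each library, and, added after seeing the data, removal of GC content and length trends.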

Additional observations from a re-analysis of the deposited data

Results flagged for a closer look

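In 112 named genes, the 5 libraries of each age were checked for a library whose gap to the nearest other exceeded 0.71 of the range (Dixon's test). Some of these genes, among them Krt16, Cdk1, Ccnb1 and Lum, were picked with their values in view. The groups share the same libraries and are not independent, so a number given by chance is only a rough guide. Of 224 groups 12 passed, where chance gives about 1 in 20, or 11.2. Of these 12, 8 were 24-month replicate 5. In that library Tfrc was at 497 normalized counts (the other 24-month libraries at 159 to 255), Bub1 at 145 (57.7 to 82.3), Cdk1 at 710 (410 to 477) and Ccnb1 at 445 (267 to 309). There too Col1a1 was at 162 (44.9 to 55.3), Lum at 67.8 (3.78 to 20.5), Scgb2b2 at 42.4 (0 to 4.73) and Obp1a at 45.2 (0 to 9.75).

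The other 4 libraries were spread over the ages. Nfkbiz was at 1233 in 12-month replicate 4 (912 to 977 in the others), and Dct at 904 in 12-month replicate 3 (56.1 to 109.6). Krt16 was at 2623 in 24-month replicate 1 (26.1 to 246), and Slc2a1 at 149.5 in 24-month replicate 3 (203 to 224), the only low library among the 12.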

How the results depend on the processing

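The 22 calls (12 higher, 10 lower) moved by more than 1.5 times with several choices. They became 0 (0 and 0) by limma without a filter on low levels (1915 genes at an unadjusted p under 0.05), 35 (21 higher) with a minimum mean of 50, 11 (6 and 5) with only the 10 libraries of the 2 ages, 57 (36 and 21) with library weights, and 14 (5 lower) with GC content and length trends removed. Leaving out 1 library gave 0 to 84 calls, 0 to 49 higher and 0 to 35 lower. The highest numbers were without young replicate 1 (84), 12-month replicate 1 (68) and 18-month replicate 2 (43). Counts lower by more than 1.5 times came without young replicates 4 (11) and 5 (12), 12-month replicates 2 (1), 4 (3) and 5 (0), 18-month replicates 1 (12), 3 (11), 4 (12) and 5 (10), and 24-month replicates 1 (0), 2 (0), 3 (0), 4 (1) and 5 (0). At 0 calls, 1206 to 1681 genes had an unadjusted p under 0.05. The cause was not tested. Quantile normalization (20), pseudocounts of 0.1 (18) and 10 (29), a 1.5-fold threshold (18), no fold threshold (22) and voom on recovered reads (21) stayed within 1.5 times. Among 3572 alternative values of single genes 5 changed sign, all of genes whose change was smaller than its SE: Kdr (0.56 ± 1.00, -0.014 after quantile normalization, and -0.091 without 12-month replicate 4 in a range up to 1.05), Pdyn (-0.027 without 12-month replicate 4 and -0.0083 without 24-month replicate 2 in a range up to 0.26) and Aldh1a1 (-0.016 without 12-month replicate 5 in a range up to 0.19).

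The replicate number as a block gave 11 calls, 3 of them lower. The numbers did not pair the libraries: the correlations of same-numbered libraries' deviations were -0.045, 0.10, -0.028, 0.015 and -0.16, and 1 of 5 correlated best with its own number. Genes at a few reads, such as Apela and Kdr, carry large errors at this depth.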
